A study of Mus musculus with 2 samples.

Results

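The genes described here encode the colony-stimulating factors and related growth factor receptors of the myeloid lineage: the ligand genes Csf1 and Il34, and the receptor genes Csf1r, Csf2ra, Csf2rb, Csf2rb2, Csf3r, Flt3 and Kit. They were taken by symbol, and all 9 were found among the 46095 genes of the count table. RNA was sequenced from marrow-derived macrophages of C57BL/6 mice, with 1 library per genotype. The KO library came from mice with floxed Tipe1 alleles and LyzM-Cre, in which the myeloid gene Lyz2 drives the Cre recombinase. Its genotype label, TIPE1-/-, does not mention Cre. The WT library is labelled wild type, and the design text gives its mice as Tipe1 f/f without naming Cre. Both cultures were kept for 5 days in medium with M-CSF, the macrophage colony-stimulating factor, at 100 ng/ml. The sources used here give neither the age of the mice nor the number pooled per library.

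M-CSF, the product of Csf1, and interleukin 34, the product of Il34, are unrelated in sequence and share 1 receptor, the tyrosine kinase encoded by Csf1r. Signalling through it keeps macrophages alive and lets their precursors divide. The KIT and FLT3 receptors are relatives of CSF1R that act mainly in progenitors, mast cells and dendritic cell precursors. The receptor for granulocyte-macrophage colony-stimulating factor (GM-CSF) pairs the binding chain encoded by Csf2ra with the shared beta chain encoded by Csf2rb, which also serves interleukins 3 and 5. Mice carry a beta chain gene, Csf2rb2, whose product serves interleukin 3 alone. Csf3r encodes the receptor for granulocyte colony-stimulating factor (G-CSF).

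The libraries held 11782664 (WT) and 15815956 (KO) counted reads. Levels are CPM, read counts scaled to an equal library size by TMM, and intervals in parentheses are 95% counting intervals, which cover no variation between cultures. With 1 library a genotype no difference has a replicate check and no p-value was computed, so every comparison is between these 2 libraries. The targeted gene, Tnfaip8l1, had 21 reads (WT) and 3 reads (KO), lower in the library labelled as deleted. Lyz2, at whose locus Cre sits, was at 14958 and 8028 CPM. Of 14 macrophage markers other than Csf1r, 13 were detected in both libraries, the lowest being Laptm5 at 36.1 and 34.8 CPM, and Aif1 was listed at 0 in both.

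Csf1 was the gene of the family that differed most between the libraries. It was read 279 times (WT) and 96 times (KO), or at 23.1 and 6.22 CPM. The KO level was 3.71-fold lower (2.93 to 4.73), a log2 ratio of -1.81. Of the 12495 genes whose mean level was 1 CPM or more, 2.08% had a lower log2 ratio. The M-CSF in the medium was protein and adds no reads, so these reads are RNA made by cells of the culture. The other ligand, Il34, had 1 read (WT) and 0 reads (KO), where the floor of 3 reads is 0.194 CPM and the upper 95% counting limit 0.239 CPM in the KO library, and no ratio was taken. In bulk RNA, fewer cells of a type and less RNA per cell cannot be told apart.

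**Figure D1:**
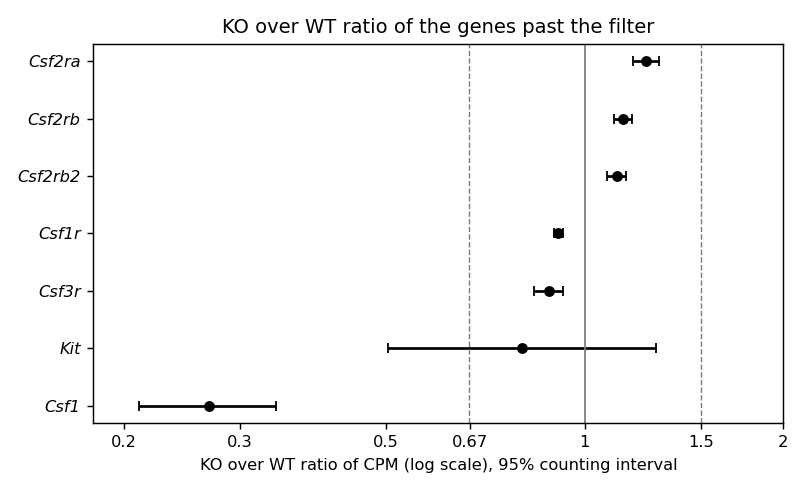
KO over WT ratio of CPM (horizontal log axis) for the 7 family genes whose mean level was 1 CPM or more, with 95% counting intervals as bars and 1.5-fold in either direction as dashed lines. Csf1 lies at 0.269, and the other 6 lie between 0.803 (Kit) and 1.24 (Csf2ra), inside the dashed lines.

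Csf1 lies on the minus strand of chromosome 3 (GRCm38, 107741048 to 107760469). The 250 bases before its RefSeq start, chr3:107760470-107760719, are shown because Csf1 is the only tested member that differed by at least 1.5-fold. A further reason is that this stretch holds letters that match an NF-kB consensus. The capitals mark the match to GGGACTTTCC, a classical NF-kB binding sequence, which is read on the opposite strand at bases -154 to -145 from the start.
Csf1 upstream region: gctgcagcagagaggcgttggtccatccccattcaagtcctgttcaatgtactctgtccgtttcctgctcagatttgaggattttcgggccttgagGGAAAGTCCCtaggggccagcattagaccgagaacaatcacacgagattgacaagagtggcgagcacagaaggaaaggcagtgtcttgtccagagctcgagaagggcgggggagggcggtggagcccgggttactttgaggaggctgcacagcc
Both strands were searched, and 0.14% of 32851 RefSeq upstream regions of the same length held these letters. The letters were read off the Csf1 region as its match to an NF-kB consensus. Their presence in Csf1 was thus fixed in advance, and their share among all regions tests nothing about Csf1. The looser NF-kB consensus, which overlaps this match, was found in 3.90% of them. Of the 6 family genes with a promoter entry (Csf1, Csf2ra, Csf2rb2, Csf3r, Flt3 and Kit), Csf1 alone held a consensus match in this window. It was therefore also the only one with the letters taken from that match. The match is a description of letters and was not linked to the level of Csf1 by any measurement here.

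Markers of stromal cells and fibroblasts, which are known sources of M-CSF in marrow, moved in the same direction as Csf1. Of 20 such markers 19 passed the filter and 18 of those were lower by at least 1.5-fold in the KO library, with Thy1 level at 3.23 and 3.11 CPM. Over all 12495 tested genes, 7.23% were lower by at least 1.5-fold with a counting interval that excludes 1. Lepr, which marks stromal cells of the marrow, had 20 reads (WT) and 0 reads (KO). The summed level of the 20 markers was 2140 CPM (WT) and 200.1 CPM (KO), 10.7-fold lower (10.3 to 11.1). The 4 most abundant were the collagen genes Col1a1 (714 and 58.9 CPM), Col1a2 (523 and 45.0 CPM) and Col3a1 (135 and 10.8 CPM) and the matrix gene Sparc (181 and 15.2 CPM). Csf1 was therefore lower by less than the stromal sum: 16 of the 19 tested markers had a lower log2 ratio than Csf1 and 3 a higher one. Set against that sum, Csf1 amounted to 1.08% (WT) and 3.11% (KO). The part of stromal RNA in the Csf1 difference was not tested. All 9 tested monocyte markers (median log2 ratio -1.12) and all 11 tested neutrophil markers (median -0.49) also had log2 ratios below 0. Their part in the Csf1 difference was not tested either. By distance in log2 CPM over the 2 libraries, the protein-coding genes closest to Csf1 were Antxr1 (23.3 and 5.38 CPM), Cxcr2 (244 and 108 reads) and Tmem37 (19.5 and 6.48 CPM).

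**Figure D2:**
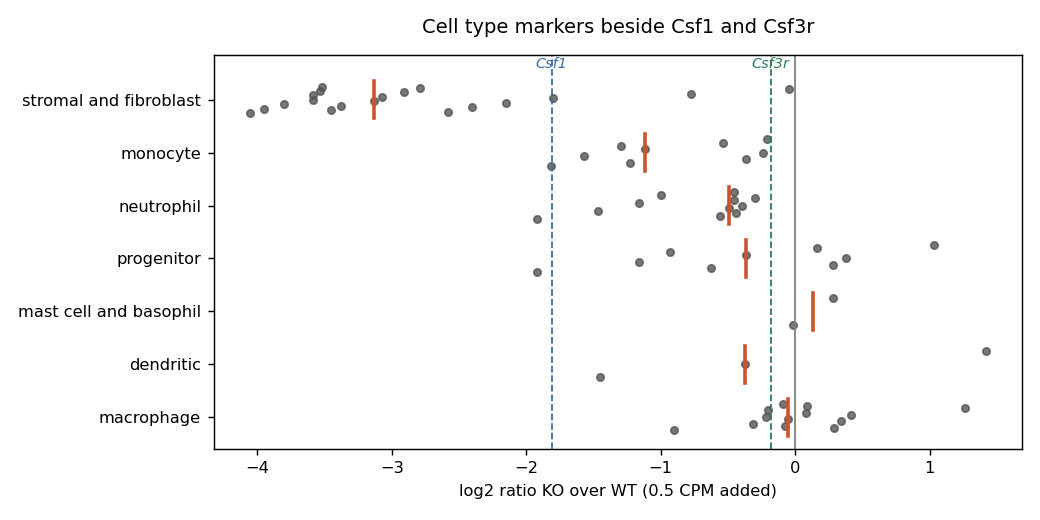
Log2 ratio of KO over WT (horizontal axis, 0.5 CPM added) for the tested markers of 7 cell types, 1 point per gene, with the median of each list as an orange bar and Csf1 and Csf3r as dashed lines. Stromal markers have a median of -3.13, below Csf1 at -1.81, and neutrophil markers a median of -0.49, below Csf3r at -0.18.

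Csf1r, the receptor of M-CSF, was the most abundant member. Its level was 2646 CPM from 31960 reads in the WT library and 2414 CPM from 37248 reads in the KO library, 1.10-fold lower (1.08 to 1.11). The counting interval excluded a ratio of 1, but the size was well short of the 1.5-fold used for a call. The gene (chromosome 18, 61100598 to 61132149, plus strand) overlaps Hmgxb3 on the opposite strand, and 17.7% of the 50-base windows of its longest coding transcript occur in Hmgxb3 transcripts. Hmgxb3 itself had 550 and 786 reads. Without a stated strand setting, reads of the overlap can fall on either gene or be dropped as ambiguous. The closest protein-coding genes in level were the lysosomal genes Lgmn (2762 and 2467 CPM) and Lamp1 (2813 and 2685 CPM), followed by Lgals3.

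The GM-CSF receptor genes Csf2ra and Csf2rb, and the interleukin 3 beta chain gene Csf2rb2, were slightly higher in the KO library. Csf2ra (chromosome 19) stood at 254 CPM (WT) and 315 CPM (KO), 1.24-fold higher (1.18 to 1.30). Csf2rb stood at 543 and 621 CPM, 1.14-fold higher (1.11 to 1.18). Csf2rb2 stood at 523 and 585 CPM, 1.12-fold higher (1.08 to 1.15). The receptor chains that GM-CSF needs were both detected in these cultures grown in M-CSF, and none of the 3 genes reached 1.5-fold. Il3ra, the binding chain for interleukin 3, stood at 52.2 and 60.9 CPM, 1.16-fold higher (1.05 to 1.29).

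Csf2rb and Csf2rb2 lie near each other on chromosome 15, at 78325752 to 78353847 on the plus strand and 78282507 to 78305721 on the minus strand. Their coding sequences of 2691 and 2637 bases were aligned, and 95.2% of the 2631 aligned pairs of bases were identical, with 126 substitutions. The longest identical run was 242 bases. Its first 90 bases, the same in both genes, are shown as a stretch in which a short read cannot be assigned (chr15:78348577-78348666 in Csf2rb, chr15:78284782-78284871 in Csf2rb2).
Csf2rb and Csf2rb2: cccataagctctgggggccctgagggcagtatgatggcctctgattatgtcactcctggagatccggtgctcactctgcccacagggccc
The gap-free window of 90 bases with the most differences holds 16, and is shown as a stretch that tells the genes apart. Capitals mark the bases at which they differ (chr15:78338897-78338986 in Csf2rb, chr15:78294345-78294434 in Csf2rb2).
Csf2rb: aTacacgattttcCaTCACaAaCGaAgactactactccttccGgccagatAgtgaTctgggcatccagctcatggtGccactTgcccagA
Csf2rb2: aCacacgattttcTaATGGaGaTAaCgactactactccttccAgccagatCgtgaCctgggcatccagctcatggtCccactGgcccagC
Of the 50-base windows of the longest coding transcripts, 18.4% of Csf2rb occur exactly in Csf2rb2 and 19.0% of Csf2rb2 occur in Csf2rb, and 6.96% and 7.20% of the 100-base windows. The sources used here do not give the read length or the handling of shared reads, so the split between these genes is uncertain. Summed over both, the level was 1067 CPM (WT) and 1206 CPM (KO), 1.13-fold higher (1.11 to 1.16). Within each library the reads of Csf2rb over those of Csf2rb2 came to 1.04 (WT) and 1.06 (KO), a change of 1.02-fold with an interval of 0.977 to 1.07 that holds 1.

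Csf3r, the G-CSF receptor of granulocytes and monocytes, stood at 245 CPM (WT) and 216 CPM (KO), 1.13-fold lower (1.08 to 1.19). Of 11 tested markers of neutrophils, which carry this receptor, 4 were counted as lower (Cxcr2, Retnlg, and Elane and Mpo, which are also on the progenitor list) and 7 as neither. All 11 had a log2 ratio below 0 (6028 of 12495 among all tested genes). The summed level of the 12 listed was 949 CPM (WT) and 679.8 CPM (KO). The most abundant were S100a9 (266 and 194 CPM), Ngp (196 and 149 CPM), Mmp8 (179 and 127 CPM) and Ltf (116 and 78.9 CPM). Monocyte markers summed to 1276 and 504 CPM. Of 9 tested, 5 were lower and 0 higher, beside 7.23% lower and 6.47% higher over all tested genes. The part of these cells in the Csf3r difference was not tested. Of the 50-base windows of the Csf3r transcript, 11.5% occur in transcripts of other genes, with 9.47% in AC105061.2. Of the 100-base windows, 0.414% occur in AC105061.2, so some Csf3r reads could be shared with that gene.

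The receptor tyrosine kinase genes of progenitors had few reads. Kit had 39 reads (WT) and 40 reads (KO), 3.23 and 2.59 CPM, and the interval of the KO over WT ratio, 0.503 to 1.28 around 0.803, holds 1. A difference in Kit was not detectable at this depth. Flt3 had 1 and 2 reads, under the floor of 3 reads in both libraries, so no ratio is given. The genes of their ligands were low, and both intervals held 1: Kitl, encoding stem cell factor, stood at 4.31 and 4.80 CPM (ratio 1.11, 0.771 to 1.62) and Flt3l at 6.04 and 7.26 CPM (ratio 1.20, 0.886 to 1.64). Of the mast cell and basophil markers, 4 of 10 had no read in the WT library and 2 of 10 had none in the KO library, and the 10 summed to 6.95 and 5.90 CPM. Of 9 tested progenitor markers 1 was higher (Cdk6, 124 and 253 CPM) and 3 were lower (Elane, Mpo and Prtn3). The shares over all tested genes were 6.47% higher and 7.23% lower. The sums of the 11 progenitor markers listed, 267 and 419 CPM, were mostly Cdk6 and Ly6a. Of 3 tested dendritic markers Itgax was higher, Ccr7 lower and Irf4 neither.

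**Figure D3:**
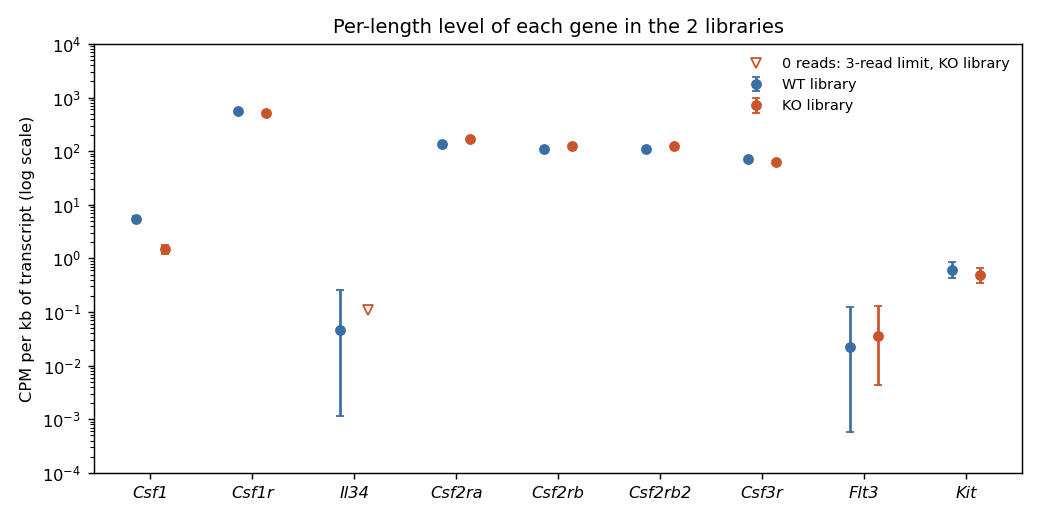
Level of each gene in CPM per kb of its longest coding transcript (vertical log axis) in the WT and KO libraries, with 95% counting intervals as bars and an open triangle at the limit of 3 reads where no read was found. Csf1r leads at 563 and 514. Csf2rb2 and the GM-CSF and G-CSF receptor genes form a group between 62.1 and 171. Csf1, Kit, Flt3 and Il34 lie at 5.53 or below.

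Per length of the longest coding transcript, the order of the 7 genes past the filter was the same in both libraries. Csf1r led with 563 (WT) and 514 (KO) CPM per kb. Csf2ra followed at 138 and 171 CPM per kb, then Csf2rb at 111 and 127 and Csf2rb2 at 110.4 and 123, and the counting intervals of these beta chain genes overlap in each library. Csf3r stood at 70.4 and 62.1, Csf1 at 5.53 and 1.49 and Kit at 0.616 and 0.495 CPM per kb. The places of the 3 GM-CSF and interleukin 3 receptor genes are not settled, because with the length of all annotated exons Csf2rb2 came before Csf2ra and Csf2rb in both libraries (110.4, 88.6 and 74.7 CPM per kb in the WT library). Kit stood below Csf1 with either length.

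Across the family, 7 of 9 genes passed the filter on the mean level. By the rule used for a call, a difference of at least 1.5-fold with a counting interval that excludes 1, 0 of the 7 were higher and 1, Csf1, was lower. Over all 12495 tested genes, 6.47% were higher and 7.23% lower by the same rule. With at least 2-fold required the members gave the same counts, beside 2.59% higher and 4.78% lower over all tested genes. The median log2 ratio of the 7 was -0.13, against 0.01 over all tested genes, and 0.014 for the members with a mean of 10 CPM or more, which leaves out Kit. The 10 other ligand and receptor genes of these families gave 4 tested genes and none counted in either direction. Sdc1, a proteoglycan that binds interleukin 34, was the furthest apart, at 108 and 156 CPM, 1.44-fold higher (1.35 to 1.54). Csf2, Il3 and Il5 were listed at 0 in both libraries. Csf3, the G-CSF gene, had 0 reads (WT) and 5 reads (KO), and the counting interval of its ratio, which starts at 0.717, holds 1. Ptprz1, which encodes another receptor of interleukin 34, had 4 and 0 reads, with a counting interval of the ratio from 0 to 1.19 that holds 1, and Il5ra had 4 and 3 reads.

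Of 29 tested genes acting directly below CSF1R, 5 were counted as higher in the KO library, 0 as lower and 24 as neither, beside 6.47% higher and 7.23% lower over all tested genes. Log2 ratios were above 0 for 26 of the 29 (6467 of 12495 among all tested genes), with a median of 0.19. Among them were Sla, an adaptor that damps receptor signalling, at 24.7 and 60.9 CPM (2.47-fold), Dok2, an inhibitory docking protein gene, at 35.6 and 69.8 CPM (1.96-fold), the kinase gene Src (20.3 and 33.2 CPM), and Ptpn6, which encodes the phosphatase SHP-1, at 336 and 513 CPM. Cbl, whose product ubiquitinates CSF1R, was 1.31-fold higher (1.26 to 1.36) and Inpp5d, encoding the lipid phosphatase SHIP1, stood at 361 and 307 CPM. With total counts in place of TMM, 3 were counted as higher.

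The JAK2-STAT list covers the signalling arm of the GM-CSF and G-CSF receptors. Beside 6.47% higher and 7.23% lower over all tested genes, 0 of its 14 tested genes were higher and 2 lower, with a median of 0.00. The lower ones were Socs2, a feedback inhibitor, with 48 and 14 reads (4.38-fold lower, 2.38 to 8.60), and Osm, the oncostatin M gene, at 12.4 and 8.23 CPM. Jak2 stood at 83.0 and 98.4 CPM, Stat5a at 27.6 and 27.7 CPM and Stat5b at 83.4 and 83.5 CPM. Cish, a target of STAT5, had 14 and 31 reads with an interval of 0.895 to 3.53 that holds 1.

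Among the genes that cut M-CSF and its receptor from the cell surface or within the membrane, or that act on this cleavage, 3 of 12 were lower and 0 higher. Over all tested genes, 7.23% were lower and 6.47% higher. For the 12 the median was -0.05. The lower ones were the inhibitor genes Timp3 (105 and 10.8 CPM, log2 ratio -3.23) and Timp1 (30.3 and 2.46 CPM, log2 ratio -3.38), which stromal cells also make, and the iRhom gene Rhbdf1 (36 and 21 reads). Adam17, the protease that sheds CSF1R, stood at 438 and 588 CPM, 1.34-fold higher (1.30 to 1.39). Of the gamma-secretase genes, Psen2, Ncstn and Aph1a had ratios from 0.983 to 1.07, and Psenen stood at 25.6 and 19.8 CPM (ratio 0.773, 0.657 to 0.908).

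Transcription factors of the macrophage lineage had a median of -0.25 over 17 tested genes, with 2 higher, 2 lower and 13 neither. The shares over all tested genes were 6.47% higher and 7.23% lower. Spi1, which encodes PU.1, the main activator of Csf1r, stood at 353 and 433 CPM, 1.22-fold higher (1.18 to 1.27). Ets2, a factor downstream of CSF1R, had 21 and 125 reads and was 4.66-fold higher (2.92 to 7.79), and Egr2 was 1.84-fold higher. Cebpa, at 133 and 87.4 CPM, was among the lower ones.

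Genes associated with growth in M-CSF or in GM-CSF each went in both directions. Among all tested genes, 6.47% were higher and 7.23% lower. Of 18 tested genes associated with M-CSF 2 were higher, Adgre1 (1064 and 2554 CPM) and Folr2 (115 and 232 CPM), and 5 were lower, among them F13a1, Cx3cr1, Ccr2 and Sepp1, with a median of -0.14. F13a1, Cx3cr1 and Ccr2 are also on the monocyte list and are among the 5 genes counted as lower there. Of 13 tested genes associated with GM-CSF 2 were higher, Marco (7.62 and 223 CPM) and Itgax (72.0 and 193 CPM). The 5 lower ones, Ccr7, Kmo, Ccl22, H2-Ab1 and Ciita, were all under 10 CPM. The median was -0.37, and 0.23 among genes with a mean of 10 CPM or more, so its sign turned with the filter.

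**Figure D4:**
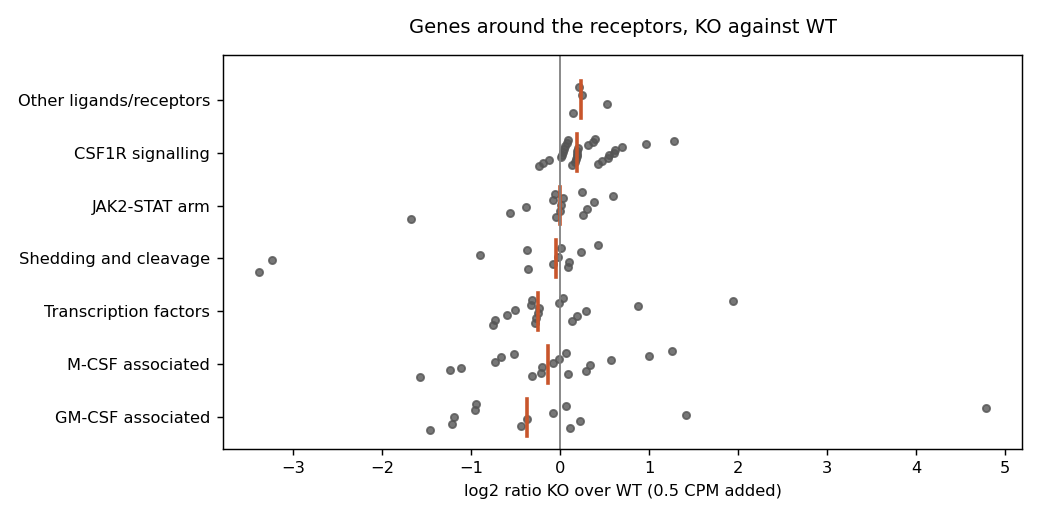
Log2 ratio of KO over WT (horizontal axis, 0.5 CPM added) for the tested genes of 7 lists around the receptors, 1 point per gene, with the median of each list as an orange bar. The medians run from -0.37 (GM-CSF associated) to 0.23 (other ligands and receptors), and the single points reach -3.38 (Timp1) and 4.79 (Marco).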

How the data were processed

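The authors deposited raw read counts per gene symbol in 1 table with 1 column per library, per the file headers, and every row named a gene. The submitters' processing notes name HISAT2 and the build GRCm38. The sources used here do not give the counter, the annotation, the strand setting or filters on reads, and reads of overlapping or near-identical genes can fall on the wrong gene.

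Counts were scaled to CPM with TMM (edgeR 4.0.16, R 4.3.3). The log2 ratio was taken after adding 0.5 CPM, and genes at a mean level of 1 CPM or more were tested. Ratios of CPM carry exact Clopper-Pearson intervals (95%, from the split of a gene's reads; scipy 1.17.1). Without molecular identifiers reads are not independent molecules, and intervals and floors cover counting error only. A floor of 3 reads is 0.248 CPM (WT) and 0.194 CPM (KO). With 1 library a genotype no test was run. The calculation was tested on simulated counts that held counting error only, so that check says nothing about variation between cultures.

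The members, the lists and the rule for named genes were chosen with earlier results of these data known. The rule took all members and the other ligands and receptors, up to 6 genes per pathway list that reached 5 CPM, were 1.5-fold apart and had an interval excluding 1, up to 4 per marker list by level, the 3 genes nearest to a member, and counts of 5 or fewer. Other named genes were chosen after their values were seen. Values of a few listed genes are not reported here, although the counts include them. Cell type lists that give no value in the main text were endothelial (1 of 5 tested genes higher, 1 lower) and lymphoid (3 of 7 lower, 0 higher). The shares over all tested genes were 6.47% higher and 7.23% lower. Per-length levels and overlaps used GENCODE vM21 (GRCm38) in place of the RefSeq exon models planned. Promoters came from RefSeq (GRCm38.p6), where 6 of 9 members matched. Alternatives were total counts, DESeq2 1.42.0 size factors, other filters, 2 CPM added and 2-fold.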

Additional observations from a re-analysis of the deposited data

How the results depend on the processing

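No paired analysis was possible because there was a single library per genotype, so no replicate could be left out either. Of 221 recomputed values 198 stayed within their interval or within 1.5 times the count, 23 moved and 0 reversed a call. Only the values of Csf1 and the stromal sum rested on a call, so no other value could be labelled as reversed. Medians were set against the counting intervals of their middle genes, which can be wide. The GM-CSF median therefore counts among the 198 although its sign turned with the filter. The counts of members, 0 higher and 1 lower (Csf1), held under every alternative run, with Csf2rb and Csf2rb2 as 1 gene and at 2-fold included. The ratio of Csf1 ran from 0.256 to 0.295. With total counts the ratios were 0.868 for Csf1r, 1.18 for Csf2ra, 1.09 for Csf2rb, 1.06 for Csf2rb2, 1.08 for the sum of the pair and 0.0890 for the stromal sum, and the member median was -0.20. Median log2 ratios were then 0.12 for CSF1R signalling (3 higher), -0.32 for transcription factors (4 lower) and -0.21 for genes associated with M-CSF. At a mean of at least 10 CPM the member median was 0.014, that of the M-CSF list -0.20 and that of the GM-CSF list 0.23, against -0.37 at 1 CPM. The GM-CSF median was -0.06 without a filter and -0.21 with 2 CPM added. At a mean of at least 10 CPM the counts were 1 lower in the JAK2-STAT list, 1 higher among transcription factors and 0 lower in the GM-CSF list. DESeq2 size factors left 1 lower in the JAK2-STAT list, and without a filter 1 gene of the CSF1R signalling list was lower. Relative to Csf1r, a setting chosen after seeing the data, the ratios were 1.36 for Csf2ra, 1.25 for Csf2rb, 1.23 for Csf2rb2 and 0.966 for Csf3r. TMM without genes at least 4-fold apart was also chosen after seeing the data.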

Other observations

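Ratios between members within a library do not depend on how the libraries are scaled, and were computed after the levels had been seen. Relative to Csf1r, the reads of Csf2ra were 1.36-fold higher in the KO library (1.30 to 1.42), those of Csf2rb 1.25-fold higher (1.21 to 1.30) and those of Csf2rb2 1.23-fold higher (1.18 to 1.27). Csf3r relative to Csf1r had a ratio of 0.966 (0.917 to 1.02), an interval that holds 1. Csf1 relative to Csf1r was 3.39-fold lower (2.68 to 4.27), so per read of the receptor gene the WT library held 0.00873 reads of the ligand gene and the KO library 0.00258. The alpha chain gene Csf2ra relative to Csf2rb was 1.08-fold higher (1.03 to 1.15). These intervals cover counting error in 2 libraries and no variation between cultures.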
